A study of Mus musculus with 12 samples.

Results

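The 38 genes described here encode the enzymes that charge transfer RNAs (tRNAs) with amino acids, the aminoacyl-tRNA synthetases, and the non-catalytic proteins that hold several of them together. They were taken from a written list and matched by gene symbol to the Ensembl genes of the deposited count files, where all 38 of 38 listed genes were found among 49548 counted genes; Mars1 was matched by its older symbol. The list holds 20 genes of the cytosolic enzymes, 16 genes of the mitochondrial enzymes, and the scaffold genes Aimp1 and Aimp2. RNA had been sequenced from the spinal cord (the lumbar cord in the methods of the study) of 8 MFN2 mice and 4 WT mice, all untreated and 30 days old, with 1 library per mouse. MFN2 mice are MitoCharc1 animals, a model of Charcot-Marie-Tooth disease type 2A named CMT2A in the labels, with the transgene Tg(Eno2-MFN2*R94Q)L51Ugfm on the background B6;D2. In addition to their own Mfn2 they carry human MFN2 with the R94Q change, driven by the Eno2 promoter, which is active mainly in neurons, so that other cells of the cord are not the main site of the transgene. WT mice are C57BL/6 in the labels and littermates in the methods. Total counts per library ranged from 19359454 to 26738930 in MFN2 mice and from 19453238 to 23564568 in WT mice.

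Each synthetase joins 1 kind of amino acid to its tRNAs, the step that makes the genetic code readable. Proteins of the cytosol and of the mitochondrion are made by separate ribosomes, and most amino acids have a cytosolic and a mitochondrial enzyme encoded by different nuclear genes; Gars and Kars encode both forms of the glycine and lysine enzymes. Eprs encodes a fused enzyme for glutamate and proline, and with several other cytosolic enzymes it sits in a large complex assembled on AIMP proteins. Neurons with long axons depend on these enzymes, and mutations of GARS1, YARS1, AARS1, HARS1, MARS1, WARS1 and KARS1, most of them dominant, have been linked to peripheral neuropathy, the group of diseases to which CMT2A belongs. Mutations of mitochondrial synthetase genes cause recessive disorders of the brain, heart, ovary or hearing.

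The libraries did not form 2 uniform groups. All 4 WT libraries carry the numbers 44 to 47 and share a run of library numbers with MFN2 libraries 41 to 43, while MFN2 libraries 72 to 76 have no WT library in their run, so that run and genotype cannot be told apart in them. What the runs stand for is not given in the sources used here. MFN2 library 43 stood apart. Its summed level of 9 forebrain marker genes was 4725 CPM (the count of a gene relative to its library's total, with totals scaled by the TMM method), against 109 to 208 CPM in the other 11 libraries, and its most abundant forebrain marker was Camk2a. Its 7 caudal Hox genes summed to 23.4 CPM against 128 to 177 CPM in the others and its 7 motor neuron markers to 362 CPM against 1764 to 3178 CPM. In these sums the other 11 libraries carried the caudal Hox and motor neuron genes of a spinal cord, with no marker of these lists at 0 in all libraries. Single Hox genes differed among them. Hoxd10 was at 0.235 to 23.3 CPM in WT libraries, at 1.87 and 31.6 CPM in MFN2 libraries 41 and 42, and at 7.49 to 29.2 CPM in libraries 72 to 76. Hoxc8 was at 10.2 to 69.2 CPM in WT libraries. What these differences stand for was not tested. The main results that library 43 moves are given with and without it. As these are libraries of whole tissue, fewer cells of a type and less RNA per cell cannot be told apart.

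Several cytosolic synthetase genes are known targets of ATF4, the transcription factor of the integrated stress response, which binds C/EBP-ATF response elements. Promoters, here 250 bases before to 50 bases after the transcript start, were at hand for 29 of the 38 genes (RefSeq, GRCm38.p6). A gene of the list was counted once if any of its promoters held the letters searched. The shares of all promoters given beside them count each promoter, so that the measures differ. The letters TGATGCAA, searched on both strands, occurred in the promoters of 4 of 13 cytosolic genes (Aars, Iars, Tars, Yars) and of 0 of 14 mitochondrial genes, against 0.895% of all 32851 promoters. The looser form TGATGNAA, which includes the first, added Gars and a further place in Aars and occurred in 3.97% of all promoters. Stretches that hold these letters are shown, 1 for each gene, because they show where the cytosolic genes of the list carry these letters. They read 5′ to 3′ on the strand of the gene, with the matched letters, or their reverse complement, in capitals.
Yars, chr4:129189895-129189924, plus strand: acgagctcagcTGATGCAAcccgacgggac
Aars, chr8:111033840-111033869, plus strand: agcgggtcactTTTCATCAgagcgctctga
Iars, chr13:49682126-49682155, plus strand: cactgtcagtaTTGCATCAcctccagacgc
Tars, chr15:11399655-11399684, minus strand: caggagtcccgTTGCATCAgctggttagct
Gars, chr6:55037960-55037989, plus strand: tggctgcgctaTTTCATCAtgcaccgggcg
The first capital lies at position 4 of the transcript in Yars, 8 in Iars and 10 in Aars, where the looser form is shown. It lies at -15 in Tars and -30 in Gars. A match of letters is a description of the sequence, not of binding. The letters CCGGAAG, a core of the sites of ETS factors such as GABPA, which is known for nuclear genes of mitochondrial proteins, occurred in 5 of 13 cytosolic, 4 of 14 mitochondrial and both scaffold genes, against 8.86% of all promoters.

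Cytosolic enzymes were transcribed to higher levels than mitochondrial ones. Per kilobase of annotated exon, the 20 cytosolic genes had a median level of 12.5 RPKM (the CPM per kilobase of exon), with a range from 4.78 to 56.5 RPKM, and the 16 mitochondrial genes a median of 2.90 RPKM, from 0.925 to 53.3 RPKM. With the length of the longest transcript in place of all exons, the medians were 20.5 and 4.42 RPKM. Leaving out library 43 gave medians of 12.7 and 2.92 RPKM.

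Gars, the glycine enzyme of both compartments, had the highest cytosolic level, 56.5 ± 5.24 RPKM (SD, n = 12), with Nars, the asparagine enzyme, at 50.6 ± 6.87 RPKM. These neighbours overlapped in their spread over libraries, and with the longest transcript as length Nars was first. Sars (serine) and Hars (histidine) followed at 35.2 ± 2.34 and 35.0 ± 2.51 RPKM and also overlapped. The lowest cytosolic genes were Farsa, a subunit of the phenylalanine enzyme, at 4.78 ± 0.336 RPKM, Qars (glutamine) at 5.10 ± 0.349 RPKM and Cars (cysteine) at 6.32 ± 0.581 RPKM. By the longest transcript the lowest were Farsa (6.49 RPKM), Vars (10.70 RPKM) and Tars (10.71 RPKM), with Qars at 10.9 and Cars at 12.9 RPKM. Among the mitochondrial genes, Lars2 (leucine) stood alone at 53.3 ± 32.7 RPKM. Iars2 (isoleucine) came next at 6.94 ± 0.530 RPKM, ahead of Aars2 (alanine) at 4.38 ± 0.396 RPKM. Ears2 (glutamate), Cars2 (cysteine) and Wars2 (tryptophan) were lowest, at 0.925 ± 0.173, 1.01 ± 0.0777 and 1.20 ± 0.167 RPKM. With the longest transcript as length, Ears2 (0.972 RPKM), Pars2 (1.48 RPKM) and Wars2 (1.61 RPKM) were lowest, and Cars2 was at 2.34 RPKM. By that length Tars2 (6.35 RPKM) was also ahead of Aars2 (6.23 RPKM). Ears2 rested on 72 to 140 counts per library and Pars2 (proline) on 75 to 142, the lowest depths in the list.

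**Figure D1:**
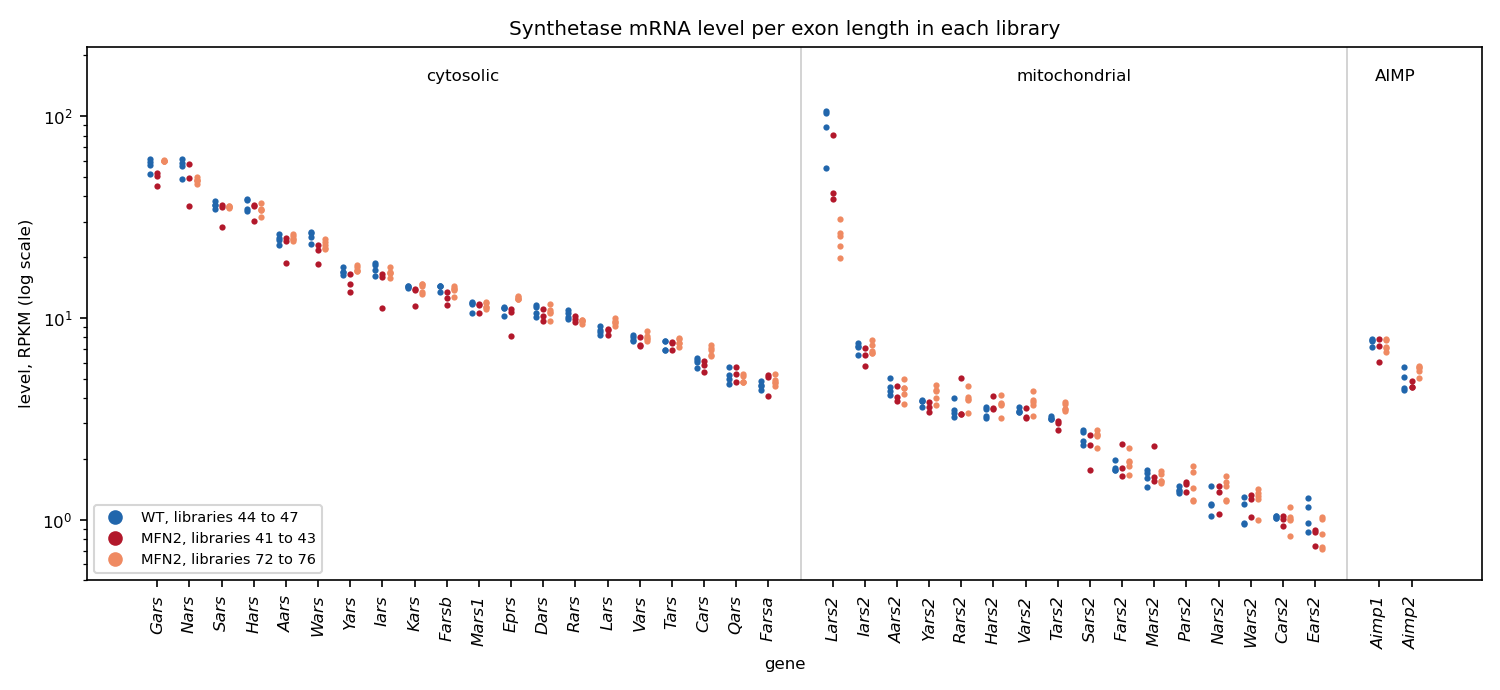
Level of each gene in RPKM on a log axis, 1 point per library, ordered within each class; blue, WT libraries 44 to 47; dark red, MFN2 libraries 41 to 43; orange, MFN2 libraries 72 to 76. All mitochondrial genes except Lars2 lie below 8 RPKM, and Lars2 has the widest spread of points.

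Set against its own mitochondrial counterpart, the cytosolic enzyme had the higher RPKM in every library in 16 of 17 pairs. The median ratio over libraries ran from 2.23 for Tars over Tars2 to 38.6 for Nars over Nars2, with Wars over Wars2 at 18.7 and Eprs at 12.7 over Ears2 and 8.04 over Pars2. The exception was the leucine pair, in which Lars reached 0.213 times the level of Lars2 (0.0796 to 0.487 over libraries) and was the lower in all 12.

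The coefficient of variation over the 12 libraries (CV, the SD as a percentage of the mean CPM) had a median of 6.93% for the cytosolic genes, from 4.40% in Rars to 13.6% in Nars. For the mitochondrial genes it had a median of 11.7%, from 7.64% in Iars2 to 61.3% in Lars2. The median was 16.4% over all 15942 genes tested and 13.1% over the 11807 of them at or above the level of the lowest synthetase gene. Without Lars2 the highest mitochondrial CV was 18.7%, in Ears2. Among the 140 genes with a mean CPM at or above that of Lars2, itself included, 0 had a higher CV. Of the 20 cytosolic genes, 13 had their lowest level in library 43, which was true of 1 of the 16 mitochondrial genes (Iars2).

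The 20 cytosolic genes together reached 1785 ± 135 CPM in the 8 MFN2 libraries and 1859 ± 85.3 CPM in the 4 WT libraries (mean ± SD), with the lowest sum, 1463 CPM, in library 43. The 5 libraries 72 to 76 lay between 1823 and 1859 CPM and the WT libraries between 1739 and 1942 CPM, so that the groups overlapped. The 16 mitochondrial genes summed to 633 ± 214 CPM in MFN2 and 1212 ± 259.8 CPM in WT mice. Lars2 made up 46.7% to 79.5% of that sum in MFN2 mice and 72.98% to 83.5% in WT mice. Without Lars2, the other 15 genes summed to 236 ± 10.7 CPM in MFN2 mice and 232 ± 4.31 CPM in WT mice, and the lowest and highest sums, 221 and 250.4 CPM, were both of MFN2 libraries. The lower mitochondrial sum in MFN2 mice was thus that of Lars2.

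**Figure D2:**
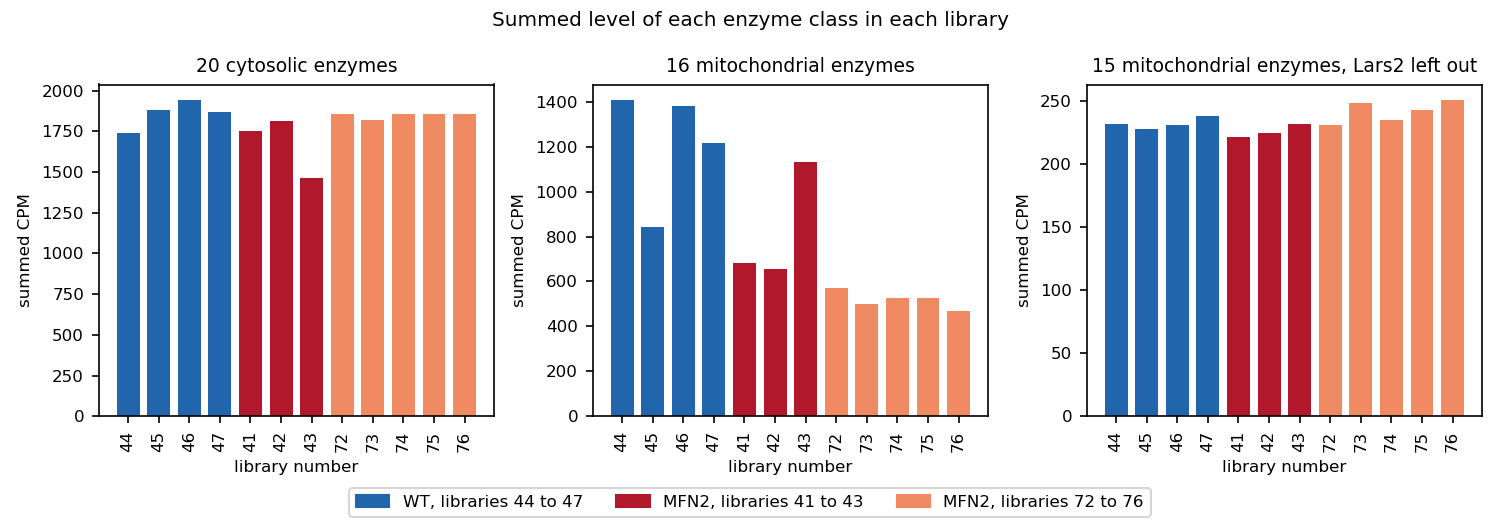
Summed CPM of the cytosolic enzymes, of all mitochondrial enzymes and of the mitochondrial enzymes without Lars2, 1 bar per library; blue, WT; dark red, MFN2 libraries 41 to 43; orange, MFN2 libraries 72 to 76. The middle panel separates most libraries by colour, and with Lars2 left out the bars lie between 221 and 250.4 CPM.

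The comparison of the 8 MFN2 with the 4 WT mice asks how synthetase transcripts of the young cord differ between the genotypes. By the labels the background differs along with the transgene in every comparison of MFN2 with WT mice, so that they cannot be told apart. All 38 genes passed the filter on low counts (more than 1 CPM in at least 3 libraries). With edgeR's quasi-likelihood test, 0 of the 38 genes and 0 of 15942 tested genes (0%) passed a false discovery rate (FDR, Benjamini-Hochberg) of 0.05. At an unadjusted p under 0.05 there were 4 synthetase genes, 10.5% of the list, against 15% of all genes tested, and all 4 were lower in MFN2 mice (7.57% of all genes were): Nars, Wars, Ears2 and Lars2. DESeq2 called 1 of the 38, Lars2 (2.63%, beside 1.25% of all genes), while limma-voom and the newer edgeR test called 0. The levels of 0 genes of the list separated the genotypes without overlap (2.04% of all genes did). The median log2 fold change was -0.038 for the cytosolic and 0.066 for the mitochondrial genes, beside 0.0038 over all genes tested. With the run of numbers as a covariate the medians were -0.11 and -0.057, and with library size alone 0.015 and 0.12, so that the sign of each depended on the setting. Without library 43 they were -0.021 and 0.052. In the first fit the log2 fold change was positive in 5 of 20 cytosolic and 10 of 16 mitochondrial genes, and in 50.8% of all genes.

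None of the neuropathy genes passed the test. Gars, whose mutations cause the type 2D form of Charcot-Marie-Tooth disease, ranged from 141 CPM through a median of 186 to 189.9 CPM in MFN2 mice and was at 161, 185, 191 and 179 CPM in WT libraries 44 to 47. The ranges overlapped for most of their length, and the log2 fold change was -0.037 (95% interval -0.23 to 0.15). Yars (-0.040), Aars (-0.031) and Mars1 (-0.014) also lay close to 0, with Hars at -0.091 and Kars at -0.063, and the 95% intervals of these 5 genes in the same fit all held 0 and lay between -0.24 and 0.14. The signs of Gars, Yars, Aars and Mars1 turned when only library size was used for scaling (0.017, 0.013, 0.022 and 0.037), and without library 43 Gars was at 0.0028 and Aars at 0.014. With the run of numbers as a covariate the values were lower: -0.22 for Gars, -0.19 for Yars, -0.12 for Aars, -0.13 for Kars and -0.033 for Mars1. Wars, the tryptophan enzyme, ranged from 63.8 through a median of 77.9 to 84.6 CPM in MFN2 mice and was at 80.2, 90.95, 92.4 and 87.1 CPM in WT libraries 44 to 47. Most MFN2 libraries lay below all WT libraries, with libraries 72 and 73 inside the WT range. Its log2 fold change was -0.19 ± 0.072 (SE; edgeR's quasi-likelihood test, FDR 0.288).

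The other genes with the largest changes in their class were Nars (-0.23, FDR 0.308) and Iars, the isoleucine enzyme (-0.14, FDR 0.497), among the cytosolic genes, and Lars2 (-1.30, FDR 0.254), Ears2 (-0.32, FDR 0.317) and Wars2 (0.18, FDR 0.489) among the mitochondrial ones, all by the same edgeR test. Ears2 ranged from 3.67 to 5.31 CPM in MFN2 mice and from 4.47 to 6.59 CPM in WT mice, and its exons share 89 bases with Ubfd1 on the other strand. As the strand setting of the counting is not given in the sources used here, reads of overlapping genes may be counted for either gene, which also concerns Hars with Hars2 (195 shared bases), Iars2 with Rab3gap2 (2034), Mars1 with Ddit3 (68) and Aimp2 with Eif2ak1 (487). Aars shares 1326 exon bases with Exosc6 on the same strand, where no strand setting separates them, and Exosc6 was listed at 0 counts in all 12 libraries.

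**Figure D3:**
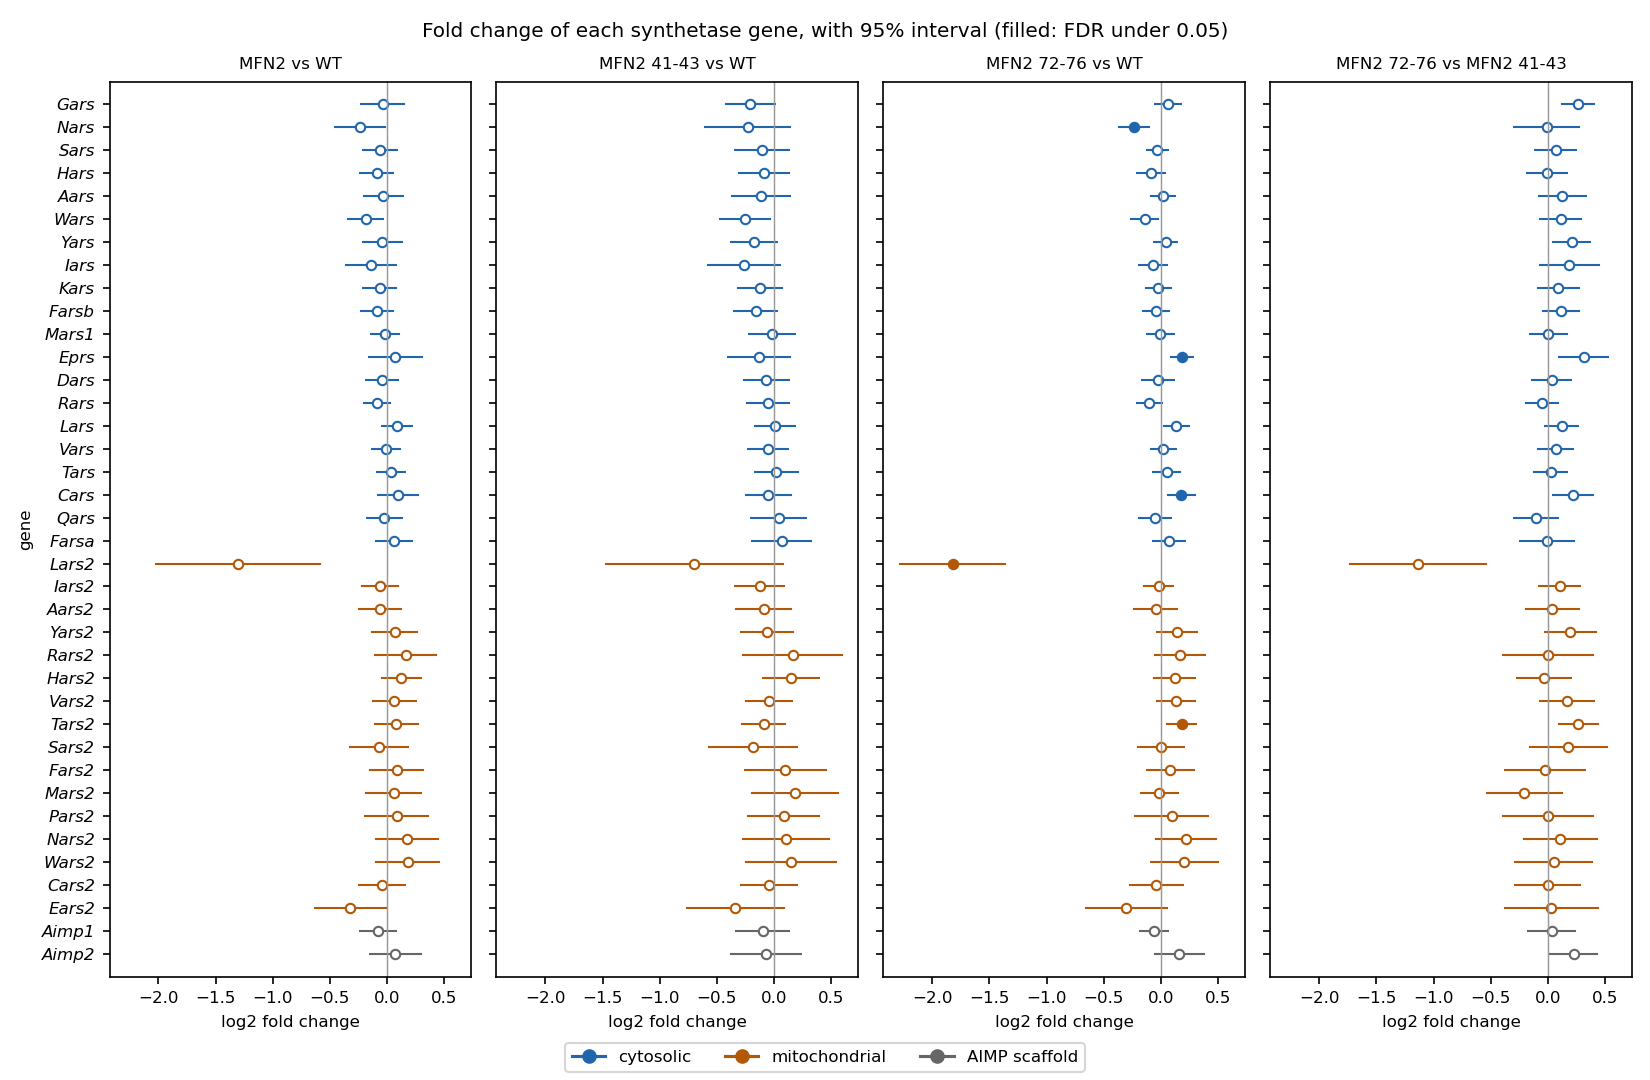
Log2 fold change of each of the 38 genes in 4 comparisons, with the 95% interval as a line; blue, cytosolic; brown, mitochondrial; grey, scaffold; filled points passed edgeR's quasi-likelihood test at an FDR of 0.05. Filled points appear only in the third panel (Eprs, Cars, Tars2, Nars and Lars2), and Lars2 lies far to the left of the others.

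MFN2 libraries 41 to 43 share their run of numbers with the WT libraries. Against these same 4 WT libraries, 0 of the 38 genes were called by edgeR's quasi-likelihood test, as were 1 of 15200 genes tested (0.00658%), and 1 gene of the list had an unadjusted p under 0.05 (2.63%, against 7.12% of all genes tested). DESeq2 and limma-voom also called 0 of the 38, with 3 and 1 genes of the list at an unadjusted p under 0.05 (7.89% and 2.63%, beside 8.66% and 4.9% of all genes). The median log2 fold change was -0.095 for the cytosolic and -0.041 for the mitochondrial genes, beside -0.0017 over all genes tested. Without library 43 these medians were -0.035 and -0.061, in the reverse order. Markers of other cells moved with this comparison: all 7 tested forebrain markers were higher at an unadjusted p under 0.05 by edgeR. The log2 fold change was negative in 6 of 7 motor neuron markers (median -0.81) and all 6 oligodendrocyte markers (-0.35). It was positive in all 5 microglial markers (0.26). No marker of these last 3 lists reached that p. What part these cells have in the synthetase values was not tested. Kars, Wars and Tars2, 7.89% of the list, were lower in all 3 libraries than in all WT libraries, beside 4.3% of all genes that were lower and 8.97% that separated without overlap in either direction. The gene with the low unadjusted p was Wars, at 79.0, 75.1 and 63.8 CPM in libraries 41 to 43, all below the WT libraries, with a log2 fold change of -0.26 ± 0.094 (SE; edgeR, FDR 0.622). Iars at -0.26, Nars at -0.23 and Gars at -0.21 had like values. Among the mitochondrial genes, Ears2 was at -0.34 and Lars2, further from 0, at -0.70. Each of these genes had an FDR of 0.622 or 0.65 in edgeR's test. Library 43 sets part of these values: without it Iars was at -0.11, Nars at -0.066, Wars at -0.18 and Gars at -0.15, while Lars2 was at -1.13. Mars2, the mitochondrial methionine enzyme, was at 0.19 with library 43, where it reached 26.1 CPM, and at -0.026 without it.

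MFN2 libraries 72 to 76 gave synthetase calls against the WT libraries. These WT libraries are shared with the comparisons above. With edgeR's quasi-likelihood test, 5 of the 38 genes (13.2%) passed, against 3746 of 15743 genes tested (23.8%), so that the share of the list was below that of all genes. Of these, 3 were higher (11.1% of all genes were) and 2 lower (12.7%). The median log2 fold change was -0.014 for the cytosolic and 0.089 for the mitochondrial genes, beside -0.00066 over all genes tested.

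Eprs, the fused glutamate and proline enzyme, was at 229, 225, 224, 225 and 233 CPM in libraries 72 to 76 and at 186, 203, 203 and 206 CPM in WT libraries 44 to 47. All 5 libraries lay above all 4 WT libraries, and the log2 fold change was 0.18 ± 0.045 (SE; edgeR, FDR 0.0114). MFN2 libraries 41 and 42, at 193 and 201 CPM, lay within the WT range, and library 43 was far lower, at 147 CPM. Cars, the cysteine enzyme, was at 42.9, 48.2, 46.9, 45.4 and 42.6 CPM in libraries 72 to 76 and at 37.1, 40.0, 41.6 and 40.6 CPM in WT. The groups again did not overlap, with a log2 fold change of 0.18 ± 0.056 (SE; edgeR, FDR 0.0352). Tars2, the mitochondrial threonine enzyme, was at 24.0, 24.4, 24.4, 26.6 and 26.1 CPM against 22.5, 21.8, 22.1 and 21.97 CPM in WT. It too did not overlap and had a log2 fold change of 0.18 ± 0.058 (SE; edgeR, FDR 0.0375). No overlap was found in 5 of the 38 genes (13.2%, against 19.8% of all genes tested), that is these 3 genes, Lars2 and Rars. Rars, the arginine enzyme, was at 30.2 to 31.67 CPM against 31.72 to 35.2 CPM in WT and did not pass the test (edgeR, FDR 0.183).

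Nars was lower, at 209.8, 201, 216, 209 and 208 CPM in libraries 72 to 76 and 213, 246, 267 and 254 CPM in WT libraries 44 to 47. Library 74 lay above WT library 44, and the other libraries did not overlap. The log2 fold change was -0.23 ± 0.060 (SE; edgeR, FDR 0.0153). Wars was lower without passing the test, at 84.6, 82.1, 78.9, 76.8 and 75.5 CPM, a log2 fold change of -0.14 (FDR 0.0811), and Lars was at 0.14 (FDR 0.0616). Gars was level with WT, at 186, 189.9, 188, 186 and 187 CPM, a log2 fold change of 0.062 (95% interval -0.049 to 0.17). Among the mitochondrial genes that did not pass, Ears2 was at -0.30 (FDR 0.196) and Nars2, the asparagine enzyme, at 0.22 (FDR 0.202).

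Some of these calls changed when a single library was left out. The calls of Eprs and Lars2 were kept under all 17 alternatives tried for this comparison. Cars lost its call in 8 of 17, among them each fit without one WT library (FDR 0.0509 to 0.0769 by edgeR) and those without MFN2 library 73, 74 or 75 (0.0613 to 0.077). Tars2 lost it in 7 of 17, among them the fits without WT library 45, 46 or 47 and without MFN2 library 74, 75 or 76. Nars lost it without WT library 46 (FDR 0.0539), and without WT library 44 both Lars (0.0318) and Wars (0.0223) were called. Libraries 73 and 47 had the highest summed skeletal muscle markers, 199.97 and 206 CPM against 1.22 to 35.5 CPM in the other libraries, and library 73 the highest Schwann cell markers, led by Pmp22, 321 CPM. Without library 73 there were 4 calls in the list (10.5%, beside 20.3% of all genes), and without library 47 there were 3 (7.89%, beside 20.6%). Astrocyte and microglial markers moved with this comparison: 3 of 5 astrocyte markers and 4 of 5 microglial markers were lower in libraries 72 to 76, with 0 of either list higher, and the astrocyte markers, led by Slc1a2, summed to 4603 to 6031 CPM against 6346 to 7320 CPM in WT. The microglial markers, led by Csf1r, summed to 74.02 to 92.2 CPM against 93.8 to 126 CPM. The 3 oligodendrocyte precursor markers, led by Gpr17, summed to 231 to 265 CPM against 190.1 to 223 CPM, with no overlap and 1 of 3 (Gpr17) called higher. Of 6 neuron markers, Syt1 was higher (0.47, FDR 0.0327) and Snap25 lower (-0.18, FDR 0.0414), by edgeR. Of other lists, 1 of 4 endothelial markers was lower and 1 of 7 tested forebrain markers higher. Their part in the synthetase differences was not tested.

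**Figure D4:**
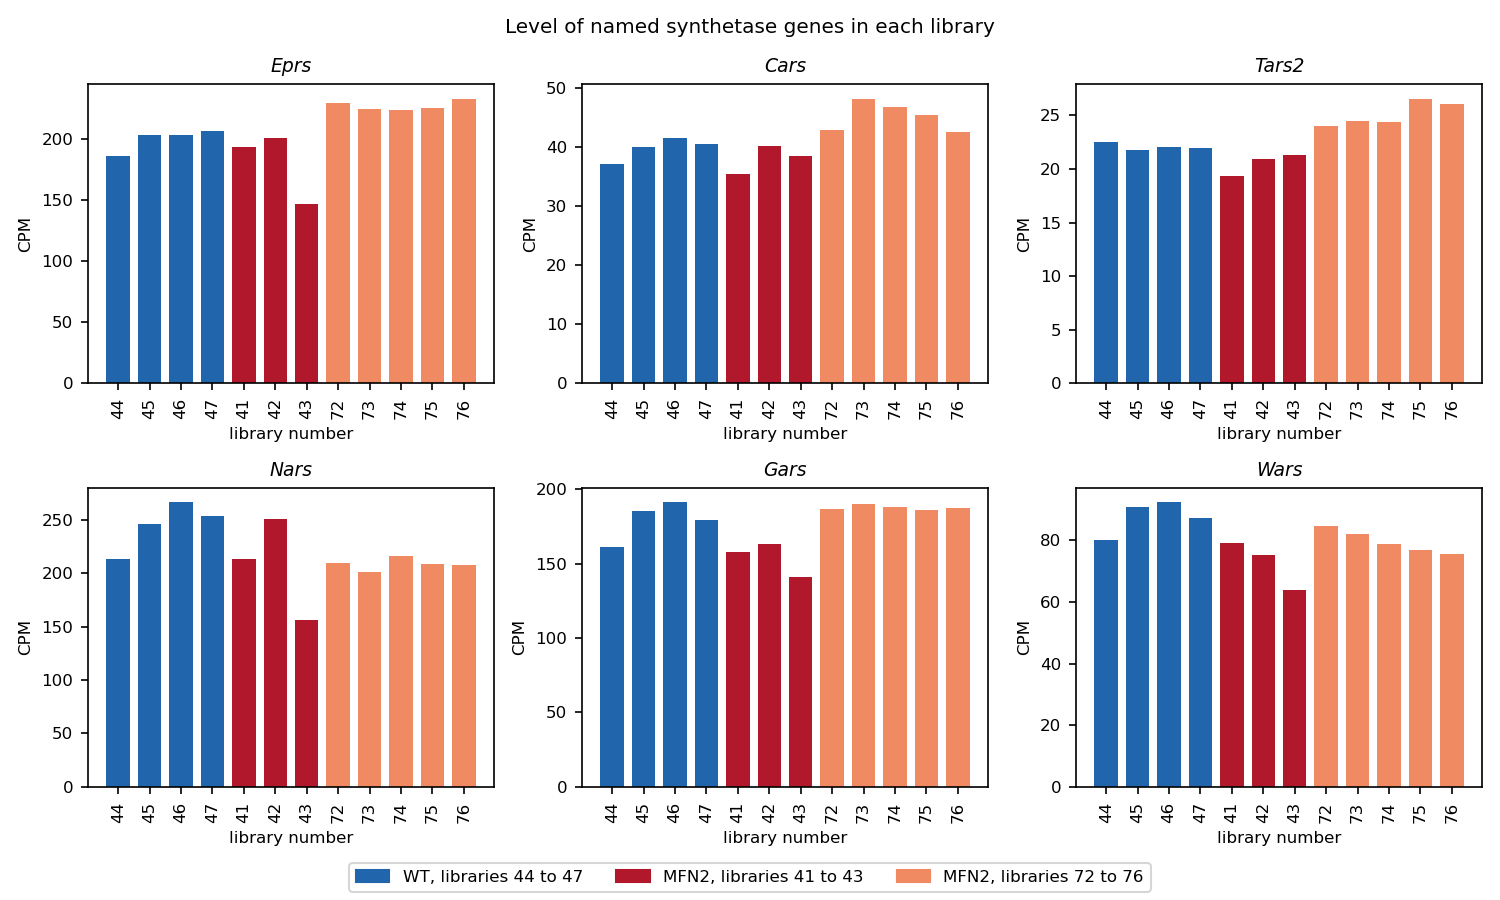
CPM of Eprs, Cars, Tars2, Nars, Gars and Wars, 1 bar per library from 0; blue, WT libraries; dark red, MFN2 libraries 41 to 43; orange, MFN2 libraries 72 to 76. The orange bars of Eprs, Cars and Tars2 stand above all blue bars, those of Gars stand level with them, and library 43 is the lowest of all in Eprs, Nars, Gars and Wars.

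Within the MFN2 genotype, libraries 72 to 76 were set against libraries 41 to 43, which compares the runs of numbers with genotype held constant and shares libraries 72 to 76 with the comparison above. With edgeR's quasi-likelihood test, 0 of the 38 genes passed, against 342 of 15633 genes tested (2.19%), and 7 of the 38 (18.4%) had an unadjusted p under 0.05 (24.6% of all genes). DESeq2 called 5 of the 38 (13.2%, beside 11.5% of all genes) and limma-voom 0. Gars was higher in all 5 libraries 72 to 76 than in libraries 41 to 43, where it was at 158, 163 and 141 CPM, with a log2 fold change of 0.26 ± 0.061 (SE; edgeR, FDR 0.0631). Eprs was at 0.31 (FDR 0.103), Cars at 0.22 (FDR 0.129), Yars at 0.21 (FDR 0.128) and Tars2 at 0.27 (FDR 0.0927), and Lars2 at -1.14 (FDR 0.0616), all by the same test. These 6 genes, with Lars and Aimp2, were the 8 of 38 (21.1%) whose runs did not overlap, against 18.3% of all genes. The log2 fold change was positive in 15 of 20 cytosolic and 11 of 16 mitochondrial genes, and in 47.7% of all genes. Mars2 was at -0.21 and, without library 43, at 0.014. Markers of other cells moved with this comparison too: 1 of 5 microglial markers was called lower (Cx3cr1, -0.72, FDR 0.0496 by edgeR), and at an unadjusted p under 0.05 all 5 were lower, as were 7 of 7 tested forebrain and 2 of 5 astrocyte markers, while 3 of 4 muscle markers were higher. The microglial markers summed to 145.5, 90.7 and 154 CPM in libraries 41 to 43. All 7 motor neuron log2 fold changes were positive (median 0.73). Of these markers, 3 did not overlap and 1 had an unadjusted p under 0.05 by edgeR. At that p, 1 of 3 oligodendrocyte precursor markers was higher and 1 of 6 neuron markers lower. Of 4 endothelial markers, 1 was higher and 1 lower at that p. The part of all these markers in the synthetase values was not tested. Without library 43, edgeR called 4 of the list (10.5%), beside 2375 genes in all (15.3%): Gars (0.22, FDR 0.0180), Eprs (0.19, FDR 0.0293), Tars2 (0.31, FDR 0.0242) and Lars2 (-0.69, FDR 0.0197). Nars was at 214, 251 and 157 CPM in MFN2 libraries 41 to 43, on both sides of its levels in libraries 72 to 76.

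Lars2, the mitochondrial leucine enzyme, differed most. It was at 1175, 616, 1151 and 977 CPM in WT libraries 44 to 47, at 459.6, 431 and 899 CPM in MFN2 libraries 41 to 43, and at 342, 250.5, 291, 283 and 219 CPM in MFN2 libraries 72 to 76. The levels thus fell into an order by run and genotype, with library 43 among the WT values and WT library 45 nearest to the MFN2 libraries. Against WT the log2 fold change was -1.82 ± 0.20 (SE; edgeR, FDR 0.000806) in libraries 72 to 76 and -1.30 ± 0.33 (FDR 0.254) in all 8 MFN2 libraries. In the latter comparison it reached an FDR of 0.0414 (-1.59) in the edgeR fit without library 43, 0.0247 (-1.67) with the forebrain markers as a covariate and 0.0223 (-1.29) with DESeq2. It did not pass under the other 19 alternatives. With the run of numbers as a covariate, which rests on MFN2 libraries 41 to 43 against WT, the log2 fold change was -0.72 (edgeR, FDR 0.287).

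The gene whose profile over the 12 libraries was most like that of Lars2, of 15941 other genes tested, was Gm42418 (Pearson's r of log2 CPM 0.93), a non-coding RNA gene on chromosome 17. Gm15564, an antisense RNA gene on chromosome 16, was the fourth (0.92), after the protein-coding Ppp1cc and Smpdl3a. Mir6236, annotated as a microRNA gene, was the fifth (0.92). The most alike synthetase gene was Rars, at place 449 (0.72). These values are descriptions over 12 libraries that share runs and depth. Gm42418 is among the most abundant entries of these libraries, at 8304 to 11389 CPM in WT, 7121 to 11617 CPM in MFN2 libraries 41 to 43 and 5815 to 6876 CPM in libraries 72 to 76, and Gm15564 was at 33.9, 19.0, 29.7 and 20.9 CPM in WT libraries 44 to 47 and at 12.4 to 15.6 CPM in libraries 72 to 76. In both, libraries 72 to 76 lay below all WT libraries, with log2 fold changes of -0.67 for Gm42418 (FDR 0.000635) and -0.94 for Gm15564 (FDR 0.00272) by edgeR's quasi-likelihood test. In GENCODE M21, a transcript of Gm15564 shares a stretch of 72 aligned bases, 71 of them identical, with the longest Lars2 transcript at positions 3278 to 3349, which is behind the coding sequence (positions 200 to 2905) in the 3′ UTR. No such stretch was found between Lars2 and Gm42418. How many reads counted for Lars2 came from that stretch cannot be read from counts per gene and was not tested, so that its level and its difference are uncertain as measures of the enzyme's transcript. The 3 abundant non-coding entries Gm23935, Gm26917 and Gm42418 were grouped here as like ribosomal RNA. Together they took 7.27% to 7.81% of the counts in libraries 72 to 76, 9.92% to 11.6% in MFN2 libraries 41 to 43 and 9.72% to 12.6% in WT libraries. In likeness to Lars2, Gm23935 was at place 74 (0.83) and Gm26917 at place 426 (0.72). Whether these entries bear on the counts of Lars2 was not tested.

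**Figure D5:**
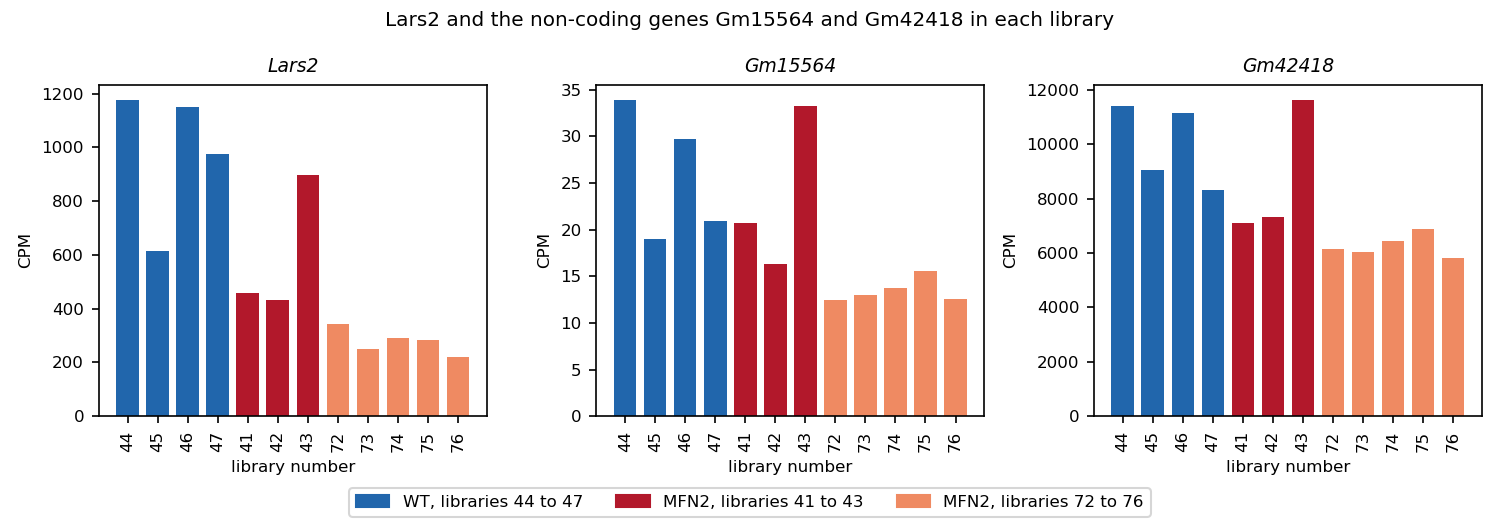
CPM of Lars2, Gm15564 and Gm42418, 1 bar per library from 0; blue, WT libraries; dark red, MFN2 libraries 41 to 43; orange, MFN2 libraries 72 to 76. In all 3 panels the orange bars are lower than every blue bar, and library 43 is the highest of the MFN2 libraries.

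The scaffold genes did not pass the test in any of the comparisons. Aimp1 was at 33.7 to 44.2 CPM in MFN2 and 40.4 to 43.9 CPM in WT mice, and Aimp2 at 7.48 to 9.53 and 7.29 to 9.48 CPM. The third AIMP gene, Eef1e1, was at 8.57 to 10.99 CPM in MFN2 and 9.70 to 11.2 CPM in WT mice. Of the 8 enzymes of the complex, 1 was called in libraries 72 to 76 against WT, Eprs, where 23.8% of all genes were called.

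Genes that act beside the synthetases were compared in the same fits. In libraries 72 to 76 against WT, 1 of 3 genes of the mitochondrial amidotransferase, which makes glutaminyl-tRNA in place of a synthetase, was lower (Gatb, -0.33), and 2 of 10 mitochondrial translation factors were higher (the elongation factor Gfm1, 0.15, and the recycling factor Mrrf, 0.30). Of 8 genes of tRNA maturation, 2 were higher, Trnt1, which adds the CCA end, at 0.20 and Trit1, which modifies the anticodon loop, at 0.39. Of 6 cytosolic elongation factors, 2 were lower: Eef2, at -0.36, with 954 to 1023 CPM against 1207 to 1331 CPM in WT, and Eef1a1, at -0.17. Among 14 tested genes of the integrated stress response, 1 was higher (the amino acid transporter Slc7a5, 0.29) and 4 were lower: the transcription factor Atf5 (-0.55), the serine synthesis genes Phgdh (-0.59) and Psat1 (-0.38), and the cystine transporter Slc7a11 (-0.46). Each of these passed edgeR's test at an FDR of 0.05 and stands against 11.1% of all genes higher and 12.7% lower. Atf4 (0.14, FDR 0.0673) and Chac1 (0.25, FDR 0.102, by edgeR) had an unadjusted p under 0.05 and did not pass the adjusted test, and Chac1, at 5.35 to 6.12 CPM against 4.45 to 5.06 CPM in WT, did not overlap. Ddit3 and Asns did not pass, and neither did, in the same comparison, the 5 synthetase genes whose promoters held the TGATGNAA letters; of these, Gars passed with library size alone as scaling (edgeR, FDR 0.0482). Phgdh and Psat1 are known to be highly expressed in astrocytes, whose markers were lower in the same libraries, and the part of these cells was not tested.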

How the data were processed

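RNA of 12 spinal cords was sequenced as paired 75-base reads. The methods of the study describe poly(A) mRNA sequencing, and its main text describes total RNA sequencing. The authors aligned the reads with STAR to GRCm38.p6 and deposited counts per Ensembl gene, not normalized. Counting tool and strand setting are not given in the sources used here; labels and methods name different SMARTer kits. Symbols, exon lengths and overlaps came from GENCODE M21, which matched 49289 of 49548 gene IDs, and promoters from RefSeq. Of the matched genes, 0 lie on the mitochondrial chromosome, so that its genes were not analysed here.

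TMM scaling and the legacy robust quasi-likelihood test of edgeR 4.0.16 (R 4.3.3) were applied over all genes above 1 CPM in at least 3 libraries of a comparison, with Benjamini-Hochberg adjustment at an FDR of 0.05. Standard errors and intervals were derived from the F statistic. RPKM used the union of annotated exons. Alternatives were other filters and scalings, DESeq2 1.42.0, limma 3.58.1, covariates and each library left out; the summary without Lars2 was added after the data were seen. Scripts were tested on simulated counts. Transcripts were aligned with blastn 2.17.0+.

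The members and lists were chosen with earlier results of these data known. Genes described one by one are the 7 neuropathy genes, those called, those without overlap, the 3 highest and 3 lowest levels and the 3 largest changes in each class, and their counterparts; Gm42418, Gm15564 and the called genes of the neighbouring lists were named after their values were seen. Each count is of 1 mouse, and intervals over few mice limit the precision. In pairs of libraries of a genotype, counts differed by more than sampling noise. Some items are not reported here.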

Additional observations from a re-analysis of the deposited data

Results flagged for a closer look

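In 76 groups of libraries (38 genes in the 8 MFN2 and in the 4 WT libraries), 1 library lay apart from the others in 11, by Dixon's ratio of its gap to the range of log2 CPM, where chance gives about 1 in 20 (3.8 groups). Library 43 was that library in 8 of the 11. It was the lowest of the MFN2 libraries for Sars (ratio 0.866, 145 CPM), Aars (0.745, 174 CPM), Iars (0.742, 58.9 CPM), Eprs (0.597, 147 CPM), Wars (0.578, 63.8 CPM), Kars (0.532, 51.1 CPM) and Nars (0.532, 157 CPM). It was the highest for Mars2 (0.668, 26.1 CPM). This is the library with the high forebrain and low caudal Hox and motor neuron markers. Whether the synthetase levels follow from the tissue sampled was not tested.

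The other 3 were Sars2 in MFN2 library 41, the lowest (0.569, 5.84 CPM), Eprs in WT library 44, the lowest (0.841, 186 CPM), and Farsb in WT library 45, the lowest (0.93, 35.0 CPM).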

How the results depend on the processing

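No paired analysis was possible because the sample labels do not pair MFN2 with WT mice. For all MFN2 against WT mice, DESeq2 called 200 genes and 1 synthetase gene, and edgeR with the forebrain markers as a covariate 20 and 1. Leaving out each library gave 0 to 19 genes and 0 to 1 synthetase gene, the highest without library 43. The mitochondrial median was 0.12 with library size alone and -0.057 with the run of numbers as a covariate, and the cytosolic median 0.015 and -0.11. Small values turned their sign. With library size alone Gars was at 0.017, Yars at 0.013, Aars at 0.022 and Mars1 at 0.037, and with the forebrain covariate Gars was at 0.018, Yars at 0.015 and Aars at 0.033. Leaving out each library gave -0.084 to 0.0028 for Gars, -0.061 to 0.014 for Aars and -0.054 to 0.0065 for Mars1.

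For libraries 41 to 43 against WT, 0 genes were called with no filter or with limma-voom and 5 with DESeq2 (0 to 2 leaving out each library), and Mars2 ranged from -0.026 to 0.30. For libraries 72 to 76 against WT, 3 synthetase genes (7.89%, beside 11% of all genes) were called with no filter, and library size alone gave medians of 0.057 (cytosolic) and 0.16 (mitochondrial). Leaving out each library gave 2350 (without WT library 45) to 4517 genes, 2 (without WT library 46) to 6 synthetase genes and a mitochondrial median of 0.051 to 0.10. Between the runs, DESeq2 called 1795 genes and 5 synthetase genes, and library size alone 1 synthetase gene. Leaving out each library gave 31 (without library 74) to 2375 genes and 0 to 4 synthetase genes (both highest without library 43), a cytosolic median of 0.040 to 0.15, and Mars2 from -0.29 to 0.014. Medians were 0.15 (cytosolic) and 0.11 (mitochondrial) with library size alone and 0.095 (mitochondrial) with upper-quartile scaling. The longest transcript as length gave median levels of 20.5 and 4.42 RPKM, and the mitochondrial sums without Lars2 were 236 CPM in MFN2 and 232 CPM in WT mice. The cause of these shifts was not tested. Of 651 alternative values for 36 gene comparisons, 602 kept direction and call, 16 lost a call, 19 gained one and 14 turned their sign.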
